A study of Mus musculus with 6 samples.

Results

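In all, 10 genes that encode neutrophil granule proteins were taken from the deposited table of 23351 entries by exact gene symbol, and all 10 were found: 4 of primary granules (Mpo, Elane, Prtn3 and Ctsg), 4 of secondary granules (Camp, Ngp, Ltf and Lcn2) and 2 of tertiary granules (Mmp8 and Mmp9). Expression had been measured by RNA sequencing of repair tissue, which is periosteum with quadriceps muscle taken at the surface of injured bone, from C57BL/6 mice. Of the 6 libraries, 3 come from mice injected with Empty-lip, taken here as liposomes without a drug, and 3 from mice injected with Clod-lip, taken as clodronate liposomes from the column names of the table; clodronate liposomes kill cells that engulf them, macrophages above all. The labels give no age, no time after injury and no word on whether replicates are separate animals, so p-values measure only the spread between these 6 samples, and that spread may be technical. Values are FPKM, which set the fragments of a gene against its transcript length and the depth of its library. The 10 genes were chosen by their Clod-lip and Empty-lip FPKM values in these same libraries, so that difference is described below for each of them, and no test of it is read as evidence.

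Neutrophils load their granules in sequence as they mature in bone marrow. Primary (azurophil) granules are made first, at the promyelocyte stage, secondary (specific) granules next, at the myelocyte and metamyelocyte stages, and tertiary (gelatinase) granules last, at the band stage. The transcripts follow the same order, so a neutrophil in tissue carries the proteins of the early granules but normally little of their mRNA. Lcn2 and Mmp9 are also transcribed by other cells under inflammatory stimuli, and osteoclasts make much Mmp9.

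All 4 primary granule genes were higher in every Clod-lip library than in any Empty-lip library, by 3.11-fold to 6.17-fold in mean FPKM. So were 3 of the 4 secondary granule genes, Camp, Ngp and Ltf, by 3.47-fold to 4.40-fold. Lcn2, Mmp8 and Mmp9 overlapped between the groups, and each of these 3 was highest in Clod-lip 2. By limma on log2(FPKM + 1) over all 13408 genes tested, 7 of the 10 genes were called higher and 0 lower in Clod-lip (threshold 0.05 after Benjamini-Hochberg adjustment), where 4.05% of all genes were called, 2.84% higher and 1.21% lower. All 3 Clod-lip libraries lay above all 3 Empty-lip libraries for the same 7 genes, as they did for 14.0% of all genes, and lay below for 0 of the 10 and 13.4% of all genes. These counts follow from the choice of the genes and are given without further reading. The number of the 10 called higher ran from 1, Ctsg, without Clod-lip 3, where 0.0972% of all genes were called higher and 0.0299% lower, to 7 without Clod-lip 2, where 4.69% were called higher and 6.05% lower.

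**Figure D1:**
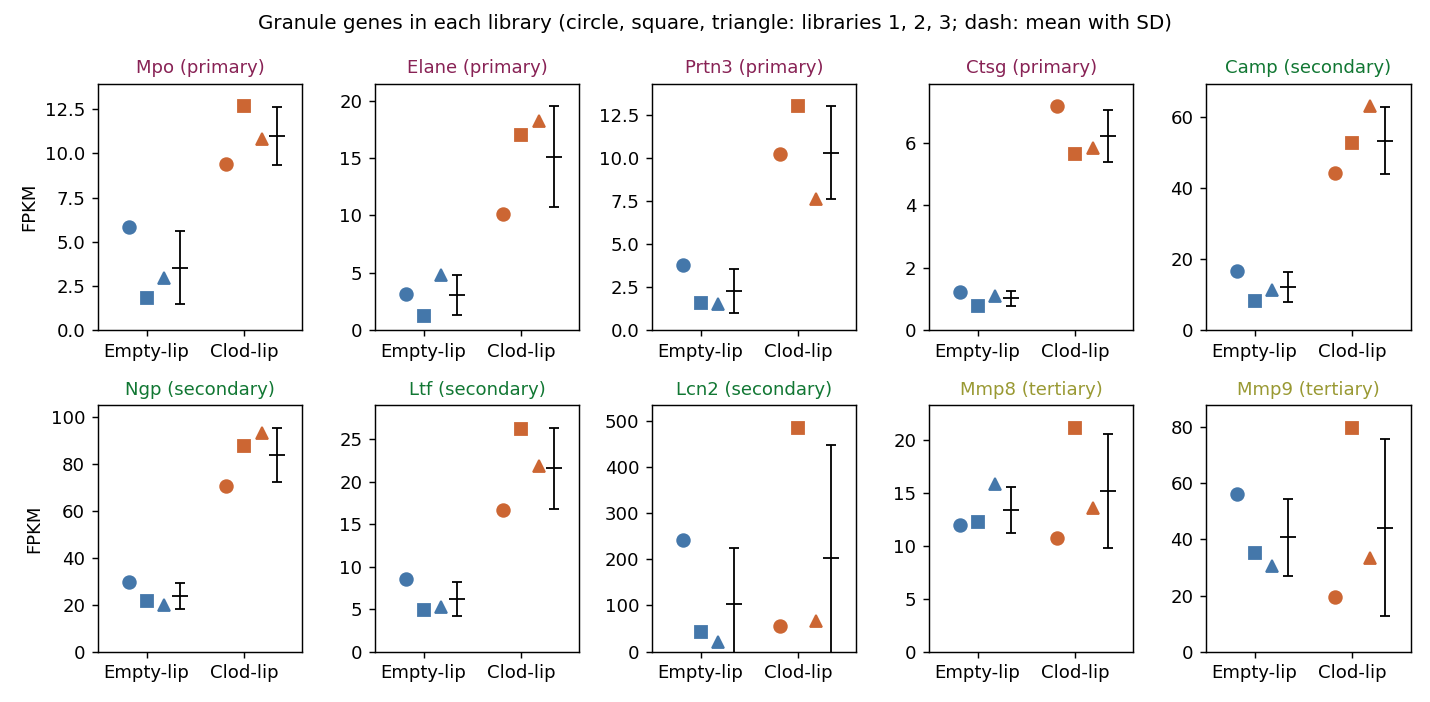
FPKM of the 10 granule genes in each of the 6 libraries on linear axes that start at 0, with the mean and SD of each group drawn as a dash with bars. The 4 primary genes, Camp, Ngp and Ltf separate the groups, whereas Lcn2, Mmp8 and Mmp9 are highest in Clod-lip 2 and overlap; the lower bars of Lcn2 pass below 0 and are clipped.

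Mpo encodes myeloperoxidase, the enzyme of primary granules that makes hypochlorous acid. It stood at 5.82, 1.81 and 2.95 FPKM in Empty-lip 1, 2 and 3 and at 9.39, 12.7 and 10.8 FPKM in Clod-lip 1, 2 and 3. The lowest Clod-lip library was 1.61 times the highest Empty-lip library, and the group means were 3.53 ± 2.06 and 10.97 ± 1.65 FPKM (SD, n = 3 libraries each), a log2 difference of 1.49 ± 0.39 (SE) on the log2(FPKM + 1) scale. The SE of the 10 genes comes from their own libraries, whereas that of other genes below is limma's moderated SE, which would be 0.30 for Mpo. That scale understates the difference of genes this low, and the ratio of mean FPKM was 3.11. On mm10 the entry lies on chromosome 11 from 87793783 to 87804412.

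Elane encodes neutrophil elastase, a serine protease that cleaves elastin and bacterial proteins. Its values were 3.13, 1.25 and 4.77 FPKM in the Empty-lip libraries and 10.1, 17.03 and 18.3 FPKM in the Clod-lip libraries, a log2 difference of 2.06 ± 0.47. Prtn3 encodes proteinase 3, a close relative of elastase. It had 3.76, 1.56 and 1.49 FPKM against 10.2, 13.005 and 7.60 FPKM, a log2 difference of 1.83 ± 0.37. The lowest Clod-lip library was 2.12 times the highest Empty-lip library for Elane and 2.02 times for Prtn3. The ratio of the 2 genes varied: Elane per Prtn3 was 3.21 in Empty-lip 3 and 2.40 in Clod-lip 3, and between 0.801 and 1.31 in the other libraries. These ratios rest on low values, down to 1.25 FPKM for Elane and 1.49 FPKM for Prtn3, and a change in proportion was not tested.

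Ctsg encodes cathepsin G, a serine protease of primary granules with a chymotrypsin-like cut. It was the lowest of the 10 genes in all 6 libraries, at 1.20, 0.752 and 1.07 FPKM in Empty-lip against 7.18, 5.64 and 5.84 FPKM in Clod-lip. The gap between the groups was the widest of the 10, the lowest Clod-lip library being 4.68 times the highest Empty-lip library. The means differed 6.17-fold, and the log2 difference was 1.85 ± 0.14. Ctsg lies on chromosome 14 from 56099880 to 56102574.

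Low FPKM values move in steps, since a gene's fragments are whole, and the steps bear on how few fragments may lie behind the primary granule genes. After correction for relative depth, which ran from 0.994 to 1.13 times that of Empty-lip 1, the 6 values of Ctsg stood as the whole numbers 3, 2 and 3 in Empty-lip 1, 2 and 3 and 19, 14 and 16 in Clod-lip 1, 2 and 3. Prtn3 stood as 9, 4 and 4 against 26, 31 and 20, Elane as 7, 3 and 12 against 24, 38 and 45, and Mpo as 42, 14 and 24 against 72, 91 and 86. These are the smallest whole numbers that hold within 0.5% and within 0.15 of a step in every library, and the true counts could be a common multiple of them. Of 2605 genes with low values, 88.6% could be written in this way. These steps were worked out after the values were seen and were not used in a test.

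**Figure D2:**
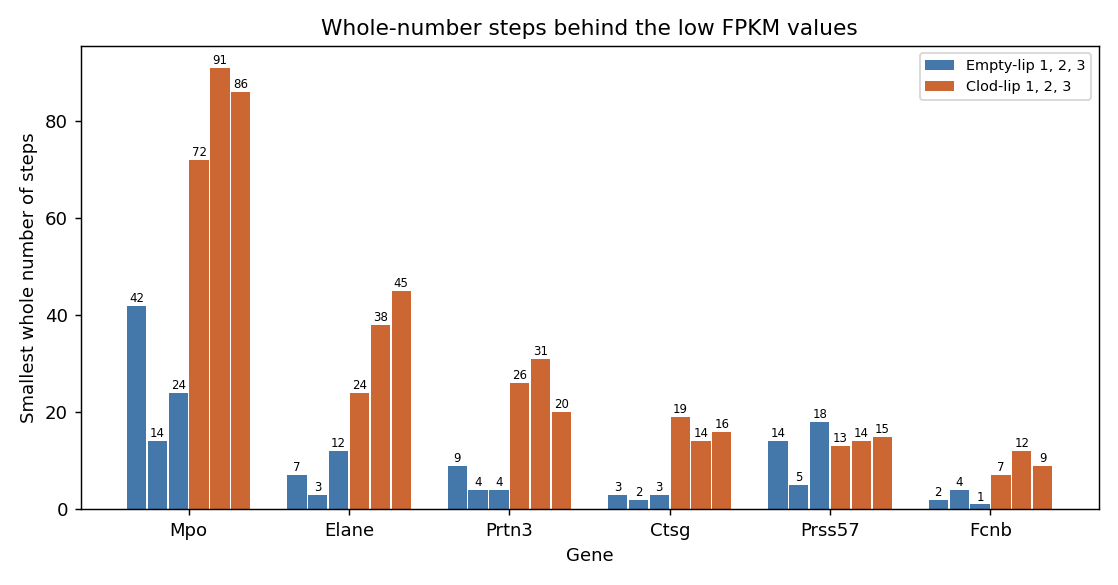
Smallest whole number of steps behind the FPKM values of 6 low genes in each library, as bars from 0 labelled with their number. Ctsg has 2 or 3 steps in each Empty-lip library and 14 to 19 in each Clod-lip library, whereas Prss57 overlaps between the groups.

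Elane and Prtn3 neighbour each other on chromosome 10, with 3.07 kb between them in the GENCODE annotation of mm10. The deposited table gives both the same locus, from 79697304 to 80369637, a stretch of 672 kb that it also gives to 44 other entries. In the authors' deposited table q is 0.814 for Elane and 0.837 for Prtn3, and of the 31 entries of that locus that the authors tested 0 were called; the smallest q among them is that of Elane. The authors' deposited table called 5 of the 10 granule genes higher (Mpo, Camp, Ngp, Ltf and Lcn2), and 0 lower, where it called 6.82% of all the genes they tested higher and 5.41% lower. For Ctsg, q in the authors' deposited table is 0.1004. Of the 38 entries of the shared locus with a mean of at least 0.5 FPKM, 5 lay above all Empty-lip libraries in all Clod-lip libraries, Elane and Prtn3 with Cirbp, Ndufs7 and Palm, which were named after their values were seen; the share over all genes was 14.0%.

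Prss57, which encodes neutrophil serine protease 4, is another primary granule gene of the same locus and lies 83.5 kb from Prtn3. It stood at 1.83, 0.610 and 2.08 FPKM in the Empty-lip libraries against 1.597, 1.84 and 1.78 FPKM, a log2 difference of 0.18 ± 0.25 with a limma adjusted p of 0.740. In whole-number steps it had 14, 5 and 18 against 13, 14 and 15, so the groups overlapped. Mpo per Prss57 was 3.19, 2.97 and 1.42 in the Empty-lip libraries and 5.88, 6.90 and 6.09 in the Clod-lip libraries. A difference in response between Prss57 and the other primary granule genes was not tested.

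Upstream sequences are shown for the genes whose promoters held one of 3 letter patterns, so that the classes can be compared by eye. The windows are the 250 bases before the annotated start from RefSeq on GRCm38.p6, the assembly of mm10, and 9 of the 10 members matched the table, Mmp9 being the one that did not. AGGAAGT, the type of site bound by PU.1, was present on either strand in all 4 primary granule promoters, in Mmp8, and in 7.69% of 32851 promoter windows of the same length. TTGCNNAA, a narrow form of the type bound by C/EBP proteins, was present in 0 of the 4 primary granule promoters, in Ngp, Ltf, Lcn2 and Mmp8, and in 9.56% of all windows. AACGGC, a MYB-type site, was present in Elane and Prtn3 and in 3.98% of all windows. PU.1, C/EBP proteins and MYB are transcription factors that act in the granulocyte lineage. The patterns were chosen after the sequences had been read, do not overlap each other here, and describe letters only. A window without a pattern may still hold other forms of the same type of site, so a lack of binding sites cannot be read from these counts. Camp had none of the 3. The windows lie at chr11:87793534-87793783 (plus strand) for Mpo, chr10:79886062-79886311 (plus) for Elane, chr10:79879417-79879666 (plus) for Prtn3, chr14:56102575-56102824 (minus) for Ctsg, chr9:110419558-110419807 (plus) for Ngp, chr9:111019042-111019291 (plus) for Ltf, chr2:32387740-32387989 (minus) for Lcn2 and chr9:7558179-7558428 (plus) for Mmp8. Each is written 5′ to 3′ on the strand of its gene, with the matches in capitals.
Mpo: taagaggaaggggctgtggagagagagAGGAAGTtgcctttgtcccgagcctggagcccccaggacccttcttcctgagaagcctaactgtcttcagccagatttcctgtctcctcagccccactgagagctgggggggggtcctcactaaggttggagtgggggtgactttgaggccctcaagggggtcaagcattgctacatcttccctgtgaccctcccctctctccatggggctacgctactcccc
Elane: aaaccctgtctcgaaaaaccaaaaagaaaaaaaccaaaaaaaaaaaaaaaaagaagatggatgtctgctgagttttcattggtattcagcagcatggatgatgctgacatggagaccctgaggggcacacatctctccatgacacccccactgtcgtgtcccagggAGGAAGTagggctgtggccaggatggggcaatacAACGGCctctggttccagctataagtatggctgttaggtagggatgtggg
Prtn3: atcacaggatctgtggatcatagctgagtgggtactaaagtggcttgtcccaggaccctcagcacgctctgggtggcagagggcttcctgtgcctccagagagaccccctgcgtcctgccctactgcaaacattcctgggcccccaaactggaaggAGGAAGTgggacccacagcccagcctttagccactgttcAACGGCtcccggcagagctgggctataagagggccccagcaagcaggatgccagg
Ctsg: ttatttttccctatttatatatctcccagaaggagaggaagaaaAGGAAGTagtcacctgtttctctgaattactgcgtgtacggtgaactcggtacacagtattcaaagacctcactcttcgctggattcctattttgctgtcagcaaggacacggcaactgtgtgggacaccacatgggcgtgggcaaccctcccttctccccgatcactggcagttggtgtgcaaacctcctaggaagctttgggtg
Ngp: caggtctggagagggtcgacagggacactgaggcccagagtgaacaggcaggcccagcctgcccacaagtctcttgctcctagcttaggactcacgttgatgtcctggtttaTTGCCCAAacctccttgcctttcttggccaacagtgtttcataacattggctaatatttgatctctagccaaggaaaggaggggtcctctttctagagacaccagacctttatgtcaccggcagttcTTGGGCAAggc
Ltf: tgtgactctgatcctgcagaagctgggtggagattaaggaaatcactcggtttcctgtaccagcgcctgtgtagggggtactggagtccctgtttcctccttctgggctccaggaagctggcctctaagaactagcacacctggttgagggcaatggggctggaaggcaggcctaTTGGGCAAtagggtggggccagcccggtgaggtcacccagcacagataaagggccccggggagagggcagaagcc
Lcn2: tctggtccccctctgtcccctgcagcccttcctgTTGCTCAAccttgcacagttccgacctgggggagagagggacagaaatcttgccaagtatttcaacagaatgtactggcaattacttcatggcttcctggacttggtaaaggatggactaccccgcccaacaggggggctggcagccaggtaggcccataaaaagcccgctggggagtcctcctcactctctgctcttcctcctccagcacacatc
Mmp8: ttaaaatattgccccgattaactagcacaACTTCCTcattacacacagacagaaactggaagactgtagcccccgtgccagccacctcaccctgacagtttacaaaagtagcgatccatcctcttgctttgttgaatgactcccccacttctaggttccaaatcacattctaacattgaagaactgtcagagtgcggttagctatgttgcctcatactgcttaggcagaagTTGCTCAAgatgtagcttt
In Elane the AGGAAGT match begins 84 bases and the AACGGC match 50 bases before the start. In Prtn3 they begin 94 and 55 bases before it, in the same order and on the same strand. In Mpo and Ctsg the AGGAAGT match lies farther out, at 223 and 206 bases.

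Among secondary granule genes, Camp encodes the precursor of cathelicidin, an antimicrobial peptide. It stood at 16.7, 8.19 and 11.3 FPKM in Empty-lip 1, 2 and 3 and at 44.1, 52.5 and 63.0 FPKM in Clod-lip 1, 2 and 3, so that the lowest Clod-lip library was 2.64 times the highest Empty-lip library. Ngp encodes neutrophilic granule protein, a relative of the cathelicidin precursor. Its values were 29.9, 21.7 and 19.7 FPKM against 70.8, 87.7 and 93.1 FPKM. Ltf encodes lactoferrin, which binds iron. It had 8.57, 4.91 and 5.23 FPKM against 16.7, 26.3 and 21.9 FPKM. In all 3 genes Empty-lip 1 was the highest Empty-lip library and Clod-lip 1 the lowest Clod-lip library, and no values overlapped.

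The 3 genes kept to one order. Ngp was above Camp and Camp above Ltf in all 6 libraries, and Camp per Ngp ran from 0.378 in Empty-lip 2 to 0.677 in Clod-lip 3. Camp per Ltf ran from 1.67 in Empty-lip 2 to 2.88 in Clod-lip 3. The log2 differences were 2.09 ± 0.31 for Camp, 1.79 ± 0.21 for Ngp and 1.66 ± 0.28 for Ltf, where the primary granule genes had 1.49 to 2.06. All 3 lie on chromosome 9, in deposited loci from 109847376 to 109849456 (Camp), from 110419807 to 110423012 (Ngp) and from 111019291 to 111042766 (Ltf). In the GENCODE annotation the 3 genes span 1.20 Mb.

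Lcn2 behaved unlike the other secondary granule genes. It encodes lipocalin 2, which withholds iron from bacteria by binding their siderophores. It stood at 242, 42.3 and 21.9 FPKM in Empty-lip 1, 2 and 3 and at 56.4, 485 and 67.1 FPKM in Clod-lip 1, 2 and 3. Empty-lip 1 and Clod-lip 2 were far above the other libraries, and the values spread 11.1-fold within Empty-lip and 8.59-fold within Clod-lip. For Camp, Ngp and Ltf the spread within a group was at most 2.04-fold. The mean FPKM of Lcn2 was 1.98 times as high in Clod-lip, with a log2 difference of 0.99 ± 1.42. That difference was 0.0064 without Clod-lip 2, 0.27 without Empty-lip 3 and 1.98 without Empty-lip 1. Its distance from the mean profile of its own class, as the root mean square difference of log2(FPKM + 1) values less their mean over the 6 libraries, was 0.99, against 0.24 to 0.44 for Camp, Ngp and Ltf.

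The tertiary granule genes encode metalloproteinases. Mmp8, neutrophil collagenase, stood at 11.97, 12.3 and 15.9 FPKM in Empty-lip 1, 2 and 3 and at 10.7, 21.2 and 13.6 FPKM in Clod-lip 1, 2 and 3. Clod-lip 2 alone lay above the Empty-lip libraries, and Clod-lip 1 lay below them. Mmp9, gelatinase B, had 56.3, 35.1 and 30.7 FPKM against 19.5, 79.8 and 33.3 FPKM. Clod-lip 2 was again highest and Clod-lip 1 lowest of all 6. The log2 differences were 0.13 ± 0.30 for Mmp8 and -0.07 ± 0.63 for Mmp9, both smaller than their errors. Without Clod-lip 2 the difference of Mmp8 was -0.12, and without Clod-lip 1 that of Mmp9 was 0.38. Acp5, which encodes the tartrate-resistant acid phosphatase of osteoclasts, was lower in all Clod-lip libraries, at 26.8 ± 6.44 FPKM against 50.9 ± 4.87 FPKM, a log2 difference of -0.92 ± 0.16 with a limma adjusted p of 0.0285, and the other 5 osteoclast markers tested did not pass. Acp5 no longer passed when any one library other than Clod-lip 2 was left out. The 9 osteoclast markers summed to 147 to 161 FPKM in Empty-lip against 115 to 136 FPKM in Clod-lip, Oscar being listed at 0 in all libraries, and their part in the Mmp9 values was not tested.

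By class, the median log2 difference was 1.84 over the 4 primary genes, 1.72 over the 4 secondary genes and 0.03 over the 2 tertiary genes, beside -0.01 over all genes tested. Without Empty-lip 1 and Clod-lip 2, left out together after the values were seen, the medians were 1.97, 1.83 and -0.27. Relative to the Empty-lip mean, the primary genes averaged 1.68, 1.96 and 1.77 in Clod-lip 1, 2 and 3 on the log2 scale. The secondary genes averaged 1.15, 2.22 and 1.53 in the same libraries, and 1.58, 1.97 and 2.00 without Lcn2. The tertiary genes averaged -0.63, 0.82 and -0.10. In bulk tissue, more cells of a type cannot be told apart from more RNA per cell.

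**Figure D3:**
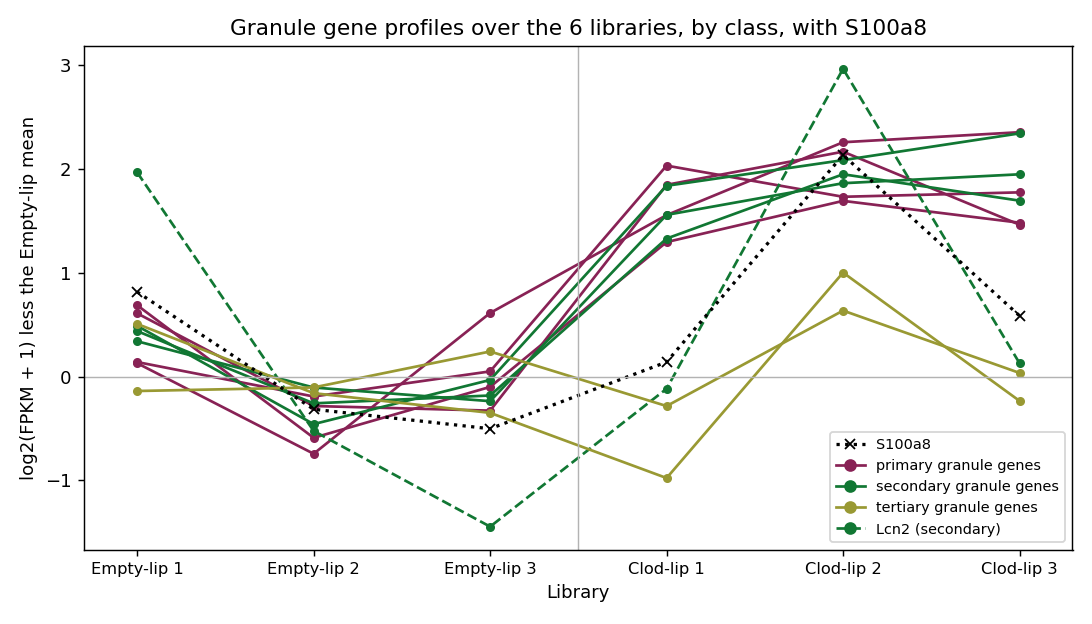
Profiles of the 10 granule genes over the 6 libraries as log2(FPKM + 1) less the Empty-lip mean, coloured by class, with Lcn2 dashed and S100a8 dotted. The primary genes, Camp, Ngp and Ltf are higher in all 3 Clod-lip libraries, while Lcn2, Mmp8, Mmp9 and S100a8 peak in Clod-lip 2.

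S100a8, a calcium-binding protein gene that mature neutrophils transcribe strongly, gave a scale for the granule genes within each library. It stood at 644, 294 and 258 FPKM in Empty-lip 1, 2 and 3 and at 403, 1608 and 549 FPKM in Clod-lip 1, 2 and 3, with a limma adjusted p of 0.352 for a log2 difference of 0.95 ± 0.53. Camp per 100 FPKM of S100a8 was 2.59, 2.79 and 4.40 in Empty-lip and 10.9, 3.27 and 11.5 in Clod-lip. On this scale the 7 genes that separated the groups all exceeded the Empty-lip range in Clod-lip 1, and all did so in Clod-lip 3. S100a8 itself lay within its Empty-lip range in Clod-lip 1 and 3, so this count largely follows from the choice of the genes. In Clod-lip 2, where the divisor S100a8 was highest, 6 of the 7 lay inside that range and Prtn3 above it. The share of all genes that would do the same on this scale was not worked out, and these counts are given without further reading. Lcn2 per 100 FPKM of S100a8 was highest in Empty-lip 1, at 37.6, and in Clod-lip 2, at 30.1, against 8.48 to 14.4 in the other libraries. Mmp9 per 100 FPKM of S100a8 was 8.75, 11.95 and 11.9 in Empty-lip and 4.84, 4.96 and 6.06 in Clod-lip. The FPKM of Mmp9 overlapped between the groups, so its gap on this scale depends on the S100a8 values. Mmp8 on this scale was 1.86, 4.18 and 6.16 in Empty-lip and 2.66, 1.32 and 2.48 in Clod-lip, which overlap.

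**Figure D4:**
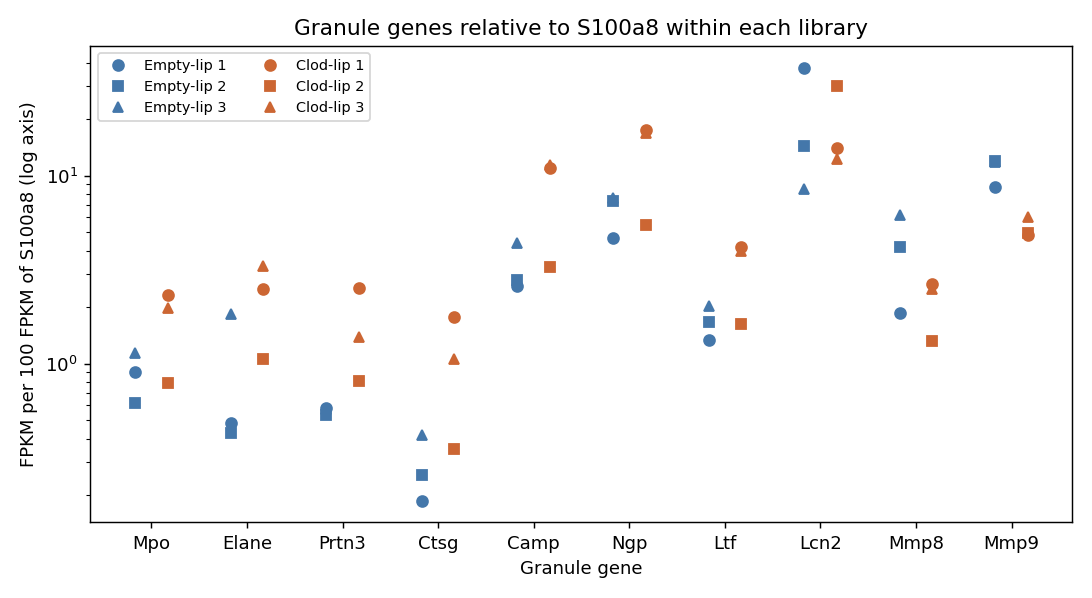
FPKM of each granule gene per 100 FPKM of S100a8 in the same library, on a log axis, with Empty-lip in blue and Clod-lip in orange. For Camp, Ngp and Ltf the Clod-lip 1 and 3 points lie above all Empty-lip points and the Clod-lip 2 point (square) lies among them.

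Of 19 matched markers of mature neutrophils, S100a8 among them, 1, Retnlg, lay above all Empty-lip libraries in all Clod-lip libraries. Of 18 tested, 0 passed by limma, with 2, G0s2 and Retnlg, at an unadjusted limma p under 0.05, which 21.8% of all genes tested reached, and the median log2 difference was 0.00. In 16 of the 19 matched genes the 2 highest libraries were Empty-lip 1 and Clod-lip 2, as they were for Lcn2 and Mmp9 among the granule genes and for 6.996% of all genes tested. S100a9, the partner of S100a8, had 556, 237 and 182 FPKM in the Empty-lip libraries against 316, 1520 and 454 FPKM, a log2 difference of 1.06 ± 0.61 with a limma adjusted p of 0.366. The summed level of the list was 679 to 1735 FPKM in Empty-lip against 920 to 3946 FPKM in Clod-lip. Without Clod-lip 2, 1 of these markers was called lower, and without Empty-lip 1 and Clod-lip 2 together, 3 were called higher, where 4.19% of all genes were called higher and 4.97% lower.

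Other genes of the same granules were read against the 4.05% of all genes called and the 21.8% at an unadjusted p under 0.05. Of 7 other primary granule genes tested, 0 passed by limma, 3 were at an unadjusted p under 0.05, all lower in Clod-lip, and the median log2 difference was -0.26. Those 3 were Lyz2, Gusb and Man2b1, the last 2 named after their values were seen. Bpi was listed at 0 in all libraries. Lyz2, lysozyme, which macrophages also make, stood at 4312 ± 125 and 3197 ± 953 FPKM (limma adjusted p = 0.217), and Cd63, a granule membrane protein of many cell types, at 1036 ± 41.4 and 944 ± 45.3 FPKM (limma adjusted p = 0.401). Of 12 other secondary granule genes, 1 rose, 0 fell and 11 did not pass, with a median of -0.01. The one that rose was Fcnb, ficolin B, a lectin of immature granulocytes. It had 0.748, 1.40 and 0.333 FPKM in the Empty-lip libraries against 2.46, 4.51 and 3.06 FPKM, or 2, 4 and 1 steps against 7, 12 and 9, with a log2 difference of 1.26 ± 0.26 and a limma adjusted p of 0.0443. Its adjusted p ran from 0.0357 to 0.1501 over 14 alternatives, and it passed in 4 of them; of the libraries left out singly, it passed without Clod-lip 2. Without Clod-lip 2, limma called 3 of the other primary granule genes lower, and 4 of the other secondary granule genes lower with 1 higher, where 6.05% of all genes were called lower and 4.69% higher. In that setting 11 of 12 macrophage markers were called lower too. The part of macrophages in the values of these 2 lists was not tested.

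All 3 Clod-lip libraries lay above all 3 Empty-lip libraries for 3 of these 12 genes, Fcnb, Olfm4 and Pglyrp1, the last 2 named after their values were seen. They lay below for 2 of the 12, Cyba and Itgb2, also named after their values were seen. Over all genes the shares were 14.0% above and 13.4% below. Of the 12, 6 were at an unadjusted limma p under 0.05, 3 higher (Fcnb, Olfm4 and Pglyrp1) and 3 lower (Cyba, Itgb2 and Itgam) in Clod-lip. Olfm4, olfactomedin 4, stood at 0.142 ± 0.123 and 0.862 ± 0.251 FPKM (limma adjusted p = 0.0892), or 1, 0 and 1 steps against 3, 5 and 4. Pglyrp1, a peptidoglycan recognition protein, stood at 8.56 ± 1.27 and 17.8 ± 6.68 FPKM (limma adjusted p = 0.0881). Of 11 other tertiary granule and secretory vesicle genes, 0 passed by limma, 4 were at an unadjusted p under 0.05, 3 of them lower in Clod-lip, and the median was -0.14. Fcgr3, an Fc receptor also found on macrophages, stood at 207 ± 11.9 and 125 ± 44.7 FPKM (limma adjusted p = 0.0880), and Cfp, properdin, at 166 ± 21.1 and 105 ± 48.7 FPKM (limma adjusted p = 0.176). Without Clod-lip 2, 5 of these 11 genes were called lower, where 6.05% of all genes were, and the part of macrophages in these values was not tested.

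**Figure D5:**
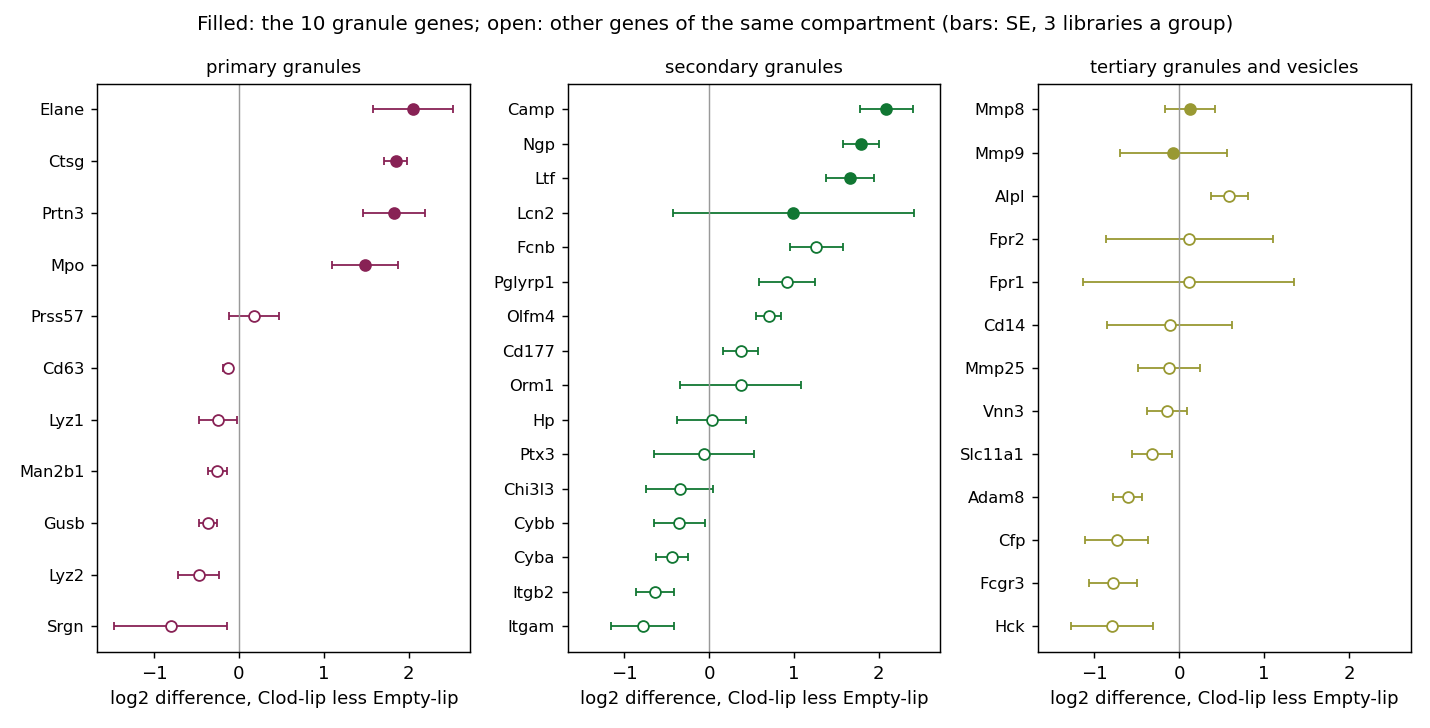
Difference of group means of log2(FPKM + 1), Clod-lip less Empty-lip, with the plain SE over 3 libraries a group, for the 10 granule genes (filled) and for other genes of the same compartments (open). The 7 highest filled points lie between 1.49 and 2.09, above every open point, the highest of which is Fcnb at 1.26. The filled genes were chosen by their values in these same libraries, so this order is not evidence of a difference between filled and open genes.

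Among 14 regulators of granulopoiesis, 1 fell, 0 rose and 13 did not pass, where 4.05% of all genes were called, with a median log2 difference of -0.04. Csf2ra, a receptor subunit for granulocyte-macrophage colony stimulating factor, was the one that fell, with 30.3 ± 1.097 FPKM in Empty-lip against 20.6 ± 2.63 FPKM in Clod-lip, a log2 difference of -0.54 ± 0.11 (limma adjusted p = 0.0396). It was called in 7 of 15 alternatives, and not when any one library other than Clod-lip 2 was left out; without Clod-lip 2, 4 of the regulators were called lower. Cebpe, the factor required for secondary granules, had 8, 9 and 1 steps in Empty-lip and 6, 7 and 13 in Clod-lip (limma adjusted p = 0.589). Gfi1, a repressor needed for granulocyte development, was listed at 0 in all Empty-lip libraries and had 4, 2 and 3 steps in Clod-lip, below the level tested. Cebpe and Gfi1 were named after their values were seen.

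The 11 granulocyte progenitor genes include Fcnb, which rose, and 10 that did not pass, with a median of 0.16. Of the 11, 4 were at an unadjusted limma p under 0.05, which 21.8% of all genes tested reached. The same 4, Cd24a, Cd34, Fcnb and Ms4a3, lay above all Empty-lip libraries in all Clod-lip libraries, as 14.0% of all genes did. Ms4a3, a membrane protein gene of granulocyte progenitors named after its values were seen, had 1, 0 and 3 steps in Empty-lip and 6, 7 and 3 in Clod-lip (limma adjusted p = 0.114). The 4 genes of the list with a difference below 0 were Mki67, Top2a, Cdk1 and Hmgb2, which dividing cells transcribe, at -0.13 ± 0.08, -0.22 ± 0.11, -0.19 ± 0.11 and -0.10 ± 0.07 on the log2 scale. In 2 of them, Mki67 and Hmgb2, all Clod-lip libraries lay below all Empty-lip libraries, as they did for 13.4% of all genes. Of 15 genes that activate or inhibit granule proteases, 0 passed by limma, and the median was 0.05. At an unadjusted p under 0.05 were 3, Ctsc, Reck and Timp3, where 21.8% of all genes tested were. Without Clod-lip 2, 2 were called higher and 1 lower. Ctsc, the cathepsin that activates the serine proteases of primary granules, named after its values were seen, stood at 246 ± 16.7 FPKM in Empty-lip against 132 ± 62.6 FPKM in Clod-lip, with a log2 difference of -0.99 ± 0.27 (limma adjusted p = 0.0889). The genes of the list with the highest levels were Cst3, cystatin C (log2 -0.01 ± 0.09, limma adjusted p = 0.980), and Serpinb6a, a protease inhibitor (0.05 ± 0.08, limma adjusted p = 0.747).

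Markers of other cells differed between the groups as well, and their part in the values of the granule genes was not tested. Over all genes tested, 2.84% were called higher and 1.21% lower in Clod-lip, and without Clod-lip 2 these shares were 4.69% and 6.05%. All 13 fast skeletal muscle genes tested rose, Myh4, a fast myosin heavy chain, from 442 ± 62.3 to 1008 ± 119 FPKM, Atp2a1, a calcium pump, from 612 ± 113 to 1418 ± 137 FPKM and Actn3, an actinin, from 329 ± 48.6 to 636 ± 37.6 FPKM (limma adjusted p = 0.0123, 0.0134 and 0.0135), with a median log2 difference of 1.02, and their summed level was 11924 to 16447 FPKM in Empty-lip against 26499 to 28835 FPKM in Clod-lip. None of the 13 passed by limma without Empty-lip 2, without Clod-lip 1 or without Clod-lip 3. Of 12 macrophage markers, 4 fell, 0 rose and 8 did not pass (median -0.56), with sums of 3501 to 3784 and 1980 to 3176 FPKM. The 4 were Lgmn, a lysosomal protease, at 787 ± 53.1 and 487 ± 81.3 FPKM (limma adjusted p = 0.0323), Fcgr1, an Fc receptor, at 91.0 ± 6.77 and 32.9 ± 17.4 FPKM (limma adjusted p = 0.0360), Mrc1, the mannose receptor, at 123 ± 4.67 and 69.6 ± 18.9 FPKM (limma adjusted p = 0.0394), and Mertk, a receptor for dying cells named after its values were seen, at 17.3 ± 0.302 and 13.02 ± 0.480 FPKM (limma adjusted p = 0.0475). Without Clod-lip 2, the Clod-lip library with the highest macrophage sum, 11 of the 12 were called lower, and without any one of the other libraries 0 were. Of 8 eosinophil markers tested, 1 rose and 7 did not pass (median 0.71). Prg2, which encodes the major basic protein of eosinophil granules, was at 5.33 ± 0.823 FPKM in Empty-lip against 17.02 ± 1.81 FPKM in Clod-lip, a log2 difference of 1.51 ± 0.13 with a limma adjusted p of 0.00602, and it was called in all 15 alternatives. Epx, eosinophil peroxidase, was listed at 0 in Empty-lip 1 and 2 and had at most 1.54 FPKM, and the sums of the eosinophil list were 10.6 to 17.3 and 26.1 to 36.9 FPKM. Of 7 basophil and mast cell markers tested, 0 passed by limma, with 1 at an unadjusted p under 0.05, which 21.8% of all genes reached. Their sums were 19.4 to 25.2 and 28.3 to 29.8 FPKM.

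Markers of marrow were looked at because the tissue lay on injured bone. Of 13 marrow B lineage markers, Igll1 and Vpreb2 were listed at 0 in all libraries, and 9 had a mean under 0.5 FPKM. By limma 0 of the 4 tested passed, with 1, Cd79a, at an unadjusted p under 0.05, which 21.8% of all genes reached. Their sums were 15.1 to 18.5 FPKM in Empty-lip against 17.6 to 21.8 FPKM in Clod-lip, mostly from Ebf1, which stromal and fat cells also transcribe. Of 11 erythroid entries tested, 1 rose, an entry that joins Hba-a1 with Hba-a2 at the same locus as a separate Hba-a2 entry and is therefore uncertain; it did not pass without Empty-lip 2, Clod-lip 1 or Clod-lip 3, and 3 entries passed without Clod-lip 2. The erythroid sums were 972 to 1180 FPKM in Empty-lip against 1076 to 1911 FPKM in Clod-lip, with Clod-lip 2 the lowest of the Clod-lip libraries. Of 4 megakaryocyte and platelet genes tested, 0 passed by limma and 2, Pf4 and Ppbp, were at an unadjusted p under 0.05, both lower in Clod-lip and both called without Clod-lip 2. The sums of the list were 1008 to 1085 and 576 to 899 FPKM, mostly from Pf4, at 940 ± 51.9 and 638 ± 145 FPKM. The other tested genes, Itga2b and Gp1bb, had log2 differences of -0.05 ± 0.17 and 0.38 ± 0.22. Which cells gave the Pf4 and Ppbp values was not tested. Gp9, a platelet receptor subunit below the level tested, had 3, 1 and 0 steps in Empty-lip and was listed at 0 in all Clod-lip libraries. Clec1b of the same list, also below that level and named after its values were seen, went the other way. It had 0, 0 and 0 steps in Empty-lip and 5, 0 and 18 in Clod-lip.

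In level, Lcn2 was the highest of the 10 genes on average in both groups, though in single libraries it was highest in 3 of 6. Mmp9, Ngp, Mmp8, Camp and Ltf followed in Empty-lip, with means of 40.7, 23.8, 13.4, 12.1 and 6.23 FPKM, and in Clod-lip the order was Ngp, Camp, Mmp9, Ltf and Mmp8, with 83.9, 53.2, 44.2, 21.6 and 15.2 FPKM. Elane, Mpo, Prtn3 and Ctsg had lower means than these 6 in both groups, with Elane, at 15.1 FPKM, next to Mmp8 in Clod-lip. Neighbours in the order overlapped in range except Mmp9 with Ngp, Ngp with Mmp8 and Prtn3 with Ctsg in Empty-lip, and Ngp with Camp and Prtn3 with Ctsg in Clod-lip. The range of Ctsg lay below that of each other member in both groups.

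Genes outside the 10 with the profile nearest to each class were found by the same root mean square difference over the 6 libraries, among 12468 genes that averaged 1 FPKM or more and were above 0 in every library. Nearest to the primary class were Prg2, at 0.29, Asb2, a ubiquitin ligase subunit, at 0.31, and Inmt, a methyltransferase, at 0.31. Asb2 had 45.6, 26.8 and 26.3 FPKM in Empty-lip against 87.2, 78.2 and 83.1 FPKM in Clod-lip. Nearest to the secondary class were G0s2, an inhibitor of fat breakdown, at 0.37, Nr4a1, a nuclear receptor induced early by many stimuli, at 0.41, and Asb2, at 0.41. The secondary profile is a mean that includes Lcn2, and Camp, at 0.44, lay farther from it than any of them. G0s2 and Nr4a1 did not pass by limma (adjusted p = 0.130 and 0.0655), and G0s2 overlapped between the groups. Nearest to the tertiary class were Icam1, an adhesion receptor for leukocytes, at 0.10, Cebpb, a C/EBP factor of inflammation, at 0.11, and Zc3h12a, an RNase that degrades cytokine transcripts, at 0.11. Icam1 had 30.8, 22.9 and 21.8 FPKM in the Empty-lip libraries against 15.7, 43.9 and 19.95 FPKM, with the same low Clod-lip 1 and high Clod-lip 2 as Mmp9.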

How the data were processed

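RNA of 3 Empty-lip and 3 Clod-lip samples was sequenced, and groups follow the sample titles. The authors deposited one FPKM per gene and sample, beside their own p-value and q-value per gene. TopHat and mm10 appear in the submitters' processing notes; their versions and the program behind the FPKM values were not stated in the labels. FPKM are not counts, so no count test was run. The test was limma 3.58.1 (R 4.3.3) with log2(FPKM + 1) as input and a trended prior variance, two-sided and Benjamini-Hochberg adjusted over the 13408 genes whose mean FPKM reached 0.5. It was tested on simulated data for Clod-lip against Empty-lip over 13408 genes, and recovered 75.8% of 2-fold and 96.4% of 4-fold changes. A mean of 8.4 genes were called falsely there. Whether these shares hold for the sequenced libraries, or for genes as low as Ctsg, was not tested. Members, 15 lists, rules and tests were chosen with earlier results of these data known. The rule for named genes took the members, at most 3 passing genes per list by p (otherwise its 2 highest in level), and the 3 nearest profiles per class; other genes, among them Mertk, Ctsc, Prss57, Cd79a, Epx, Gp9 and the progenitor genes besides Fcnb, were named after their values were seen. Of 185 list entries 182 matched. Correlations between libraries ran from 0.950 to 0.977, and small RNA genes took 39.1% to 47.7% of the FPKM sum in Empty-lip and 32.7%, 0.189% and 0.0968% in Clod-lip 1, 2 and 3. Alternatives were a replicate block, each library left out, pseudocounts 0.1 and 0.5, other filters (none, or a mean of 5 FPKM), quantile normalization, rescaling without small RNA genes and an untrended limma. Leaving out 2 libraries together, Empty-lip 1 and Clod-lip 2, was added after seeing the data.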

Additional observations from a re-analysis of the deposited data

How the results depend on the processing

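The number of genes called was 543, with 312 under no filter on low values, 284 under limma without trend, 1226 without Empty-lip 1 and Clod-lip 2 together, and 17 (without Clod-lip 3) to 1436 (without Clod-lip 2) when single libraries were left out. The median of the primary granule genes was 2.32 with a pseudocount of 0.1 and otherwise ran from 1.68 to 2.09, and that of the secondary genes ran from 1.62 to 1.97. The median of the tertiary genes changed sign, from -0.36 (without Clod-lip 2) to 0.36 (without Clod-lip 1), was -0.04 without Empty-lip 2, and was -0.27 without Empty-lip 1 and Clod-lip 2. With single libraries left out, the log2 difference of Mmp8 ran from -0.12 (Clod-lip 2) to 0.34 (Clod-lip 1), and it was -0.19 with Empty-lip 1 and Clod-lip 2 both left out. That of Mmp9 ran from -0.60 (Clod-lip 2) to 0.38 (Clod-lip 1), with 0.18 when Empty-lip 1 and 0.01 when Clod-lip 3 was left out. The cause of these shifts was not tested. The other 8 genes kept their sign in all alternatives run, although Lcn2 ran from 0.0064 (Clod-lip 2 left out) to 1.98 (Empty-lip 1 left out). Over the 15 lists, counts of called genes stayed within 1.5 times in 152 of the list and setting pairs and moved in 73.

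With the replicate number as a block, 170 of 13408 genes were called, 120 higher and 50 lower in Clod-lip. Of the 10 granule genes 4 were called higher, a count that follows in part from their choice and is given without further reading. For same-numbered samples, deviations from the group means had correlations of -0.08, -0.04 and 0.08. For samples of unlike number the correlations ran from -0.11 to 0.14. These values cannot tell whether the numbers mark pairs, and the labels do not say. The primary granule genes may rest on few fragments, with 2 steps for Ctsg in Empty-lip 2, which limits their precision.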
